A study of Mus musculus with 2 samples.

Results

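Expression of 9 genes of TGF-β activation and YAP signaling was followed through mouse alveolar organoids: the ligand genes Tgfb1, Tgfb2 and Tgfb3, the latent TGF-β binding protein gene Ltbp1, the integrin subunit genes Itgb6 and Itgav, the thrombospondin gene Thbs1, and the YAP target genes Ctgf and Cyr61. They were taken by symbol from the gene table, where all 9 of 27998 genes were found. The 9 were chosen with earlier results of these data known, so counts of members beside the share of all genes are descriptive. A pair of organoid libraries was compared, and each is the only library of its condition, so there is no replicate check and no p-value in what follows. In both, alveolar type 2 (AT2) cells carrying the Sftpc-CreERT2;R26RTomato lineage label had been sorted from tamoxifen-treated C57BL/6 mice, whose ages the labels do not give, and grown in Matrigel, for 2 weeks by the labels, together with cultured lung stromal cells. Those stromal cells had been depleted of CD31, EpCAM and CD45 cells in the study's methods, and the medium held serum, ITS and, for the first days, the ROCK inhibitor Y27632. The cultures received either PBS (control) or the cytokine IL-1β. The CreERT2 is driven by the Sftpc promoter, which marks AT2 cells and their progeny, whereas the stromal cells carry no such label.

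TGF-β is secreted in an inactive form, in which the mature ligand stays bound to its own propeptide, and this small complex is tethered to the extracellular matrix by latent TGF-β binding proteins such as LTBP1. Integrin αvβ6, which joins the αv chain (Itgav) with the epithelial β6 chain (Itgb6), binds an arginine-glycine-aspartate site in the propeptide and pulls the ligand free, and thrombospondin-1 is another activator. YAP and TAZ are transcriptional coactivators that enter the nucleus when cells spread or the Hippo kinases are off, and with TEAD factors they turn on Ctgf and Cyr61, of which Ctgf is also a target of TGF-β. In the lung, αvβ6 on epithelium is known for local TGF-β activation, and flat alveolar type 1 (AT1) cells for YAP activity.

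The integrin site is shown for the 3 ligand genes because Tgfb2, the ligand gene with the widest differences between epithelial classes, lacks it. Each line holds 39 coding bases of the GENCODE M21 transcripts (GRCm38), 5′ to 3′ on the strand of the gene, with the 3 codons at the aligned place in capitals.
Tgfb1: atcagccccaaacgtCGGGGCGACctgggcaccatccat
Tgfb2: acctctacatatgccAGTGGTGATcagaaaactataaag
Tgfb3: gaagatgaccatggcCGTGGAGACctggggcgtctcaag
The Tgfb1 window lies at chr7:25697127-25697165 (plus strand, coding exon 5), that of Tgfb2 at chr1:186630738-186630776 (minus strand, exon 6) and that of Tgfb3 at chr12:86062150-86062188 (minus strand, exon 5). In Tgfb1 and Tgfb3 the codons in capitals read arginine, glycine and aspartate, whereas in Tgfb2 they do not, and no other place in its coding sequence does.

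For the YAP targets, the promoter table of RefSeq (GRCm38.p6) held Cyr61, listed there as Ccn1, and no entry for Ctgf, Thbs1 or Tgfb3; 6 of the 9 genes were matched. The 250 bases before the Cyr61 start site, at chr3:145649986-145650235 on the minus strand, are shown with the only match to the TEAD motif GGAATG in capitals, which reads in the opposite orientation 103 to 98 bases before the start.
Cyr61: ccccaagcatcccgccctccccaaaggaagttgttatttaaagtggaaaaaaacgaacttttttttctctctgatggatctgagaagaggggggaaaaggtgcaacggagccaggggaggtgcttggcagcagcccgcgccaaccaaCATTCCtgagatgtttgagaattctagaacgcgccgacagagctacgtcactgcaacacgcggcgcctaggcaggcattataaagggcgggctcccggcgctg
Searched on both strands, GGAATG was in 12.6% of all 32851 promoter windows of this length and in none of the other members' windows. The SMAD motif CAGACA, found in 17.1% of all windows, occurred in the window of Tgfb2 and at the second start site of Ltbp1, and the AP-1 motif TGANTCA, found in 6.75%, in no member's window. These are matches of letters and do not show that a factor binds.

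The control library held 2101 cell barcodes with 33965848 unique molecular identifiers (UMIs) and the IL-1β library 3066 barcodes with 41220175 UMIs. Clustering that left out all 9 genes gave AT2-like cells (1008 control, 1972 IL-1β), transitional cells with damage-associated markers such as Krt8 and Cldn4 (57 and 103), AT1-like cells (218 and 333) and stromal cells (781 and 452). Levels are given as CPM, the UMIs of a gene per 1000000 UMIs of all cells of a class in a library, with exact Poisson 95% intervals that cover counting error only. The label transitional fitted the control cells less well than the others. The 10 AT2 marker genes summed to 104705 CPM in control transitional cells, against 135039 in control AT2-like cells, but to 33912 in IL-1β transitional cells, against 107446. The 10 transitional markers summed to 4484 in the control and 10622 with IL-1β, against 941 and 1645 in AT2-like cells, and the 11 AT1 markers to 24907 and 14198 in AT1-like cells, against 2119 and 1246. Different clusters held the class in each library: 57 of 57 control cells came from a cluster led by Sprr1a, Cox6a2 and Gstm1, and 101 of 103 IL-1β cells from a cluster with F3, 2610528A11Rik and Tpm2 among its leading genes. Over 9 clusterings the class ranged from 0 to 202 control cells and from 103 to 489 IL-1β cells, so each ratio in this class compares 2 sets of cells that differ in more than the treatment. The libraries were nearly as separate in the other classes. AT1-like cells came from 1 cluster each (217 control cells from that led by Igfbp2, 326 IL-1β cells from that led by Akap5). Over the 9 clusterings the AT1-like class ranged from 188 to 261 control cells and from 179 to 465 IL-1β cells. All 16 AT2-like clusters held at least 90% of their cells from 1 library. In the stroma 7 of 8 clusters did, with 688 of 781 control cells and 435 of 452 IL-1β cells in clusters of their own library, and only the cluster led by Ctgf was shared. The ratios between libraries in all 4 classes therefore compare cells of different clusters. Of the 6 leukocyte genes, Ptprc, C1qa and Tyrobp were at or below 0.605, 2.27 and 5.75 CPM in every class, whereas the list as a whole summed to 21962 in control and 36701 in IL-1β AT2-like cells and to 772 and 1773 in stromal cells, most of it Lyz2, which AT2 cells also make. Cd14 was at 11.3 to 61.6 in the control classes and at 152 to 537 with IL-1β, and Cd68 at 4.85 to 9.91 and 16.4 to 65.2. The 8 airway genes summed to 399 in control AT1-like cells, of which Scgb1a1 made up 398.8, and to 22.4 with IL-1β, and in AT2-like cells to 238 and 32.2. The part of these markers in the results was not tested. Of the other markers for cells not meant to be present, 4 endothelial genes summed to 18.2 in IL-1β stromal cells and to at most 2.50 elsewhere. Of 4 mesothelial genes only Msln was counted in transitional cells, at 1.08 CPM in the control and 119 with IL-1β, and its part in the results there was not tested. A floor for RNA released into the droplets was read from stromal genes: 5 collagen and proteoglycan genes of stromal cells stood in the epithelial classes at 1.42% to 4.30% of their stromal level.

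A member was called higher or lower between libraries where the ratio was at least 2-fold with a 95% interval that leaves out 1, among genes with at least 20 UMIs in the 2 groups together. In AT2-like cells 0 of 9 members were higher with IL-1β, where 8.53% of all genes were, and 3 were lower, where 5.85% were. The 3 were Tgfb3, Ctgf, close above the level that released stromal RNA gave, and Ltbp1, at a level no higher than that. In some other settings 1 was higher, and Itgb6 reached a log2 ratio of 1.63 with another random seed. With free RNA subtracted Thbs1 reached 2.17 there, and only 1 member was lower. In transitional cells 6 of the 7 members with enough UMIs were higher (Tgfb2, Itgb6, Itgav, Ctgf, Cyr61 and Thbs1; background 8.94%) and 0 were lower (4.21%). For Ctgf no direction is drawn, as given below. The IL-1β transitional levels of these 6 lie at or near the top of their ranges over 9 clusterings. Examples are Tgfb2 (25.9 to 96.05 CPM) and Itgb6 (58.8 to 188). Control transitional levels of all but Itgav lie near the bottom of theirs over 7 clusterings. Examples are again Tgfb2 (19.7 to 81.7) and Itgb6 (20.4 to 85.3). With another random seed for the clustering only 2 were higher and 1 was lower in that class, and at resolutions 1 and 0.5 no control cell was named transitional. Among AT1-like cells 0 of 8 were higher (5.78%) and only Ctgf was lower (4.2%). In stromal cells Tgfb1 was higher (4.88%) and Tgfb3, Ctgf, Cyr61 and Ltbp1 were lower (12.9%), of 9 members. In the stromal class the median log2 ratio over all 12730 genes was -0.34, below which the member median of -0.89 still lay.

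**Figure D1:**
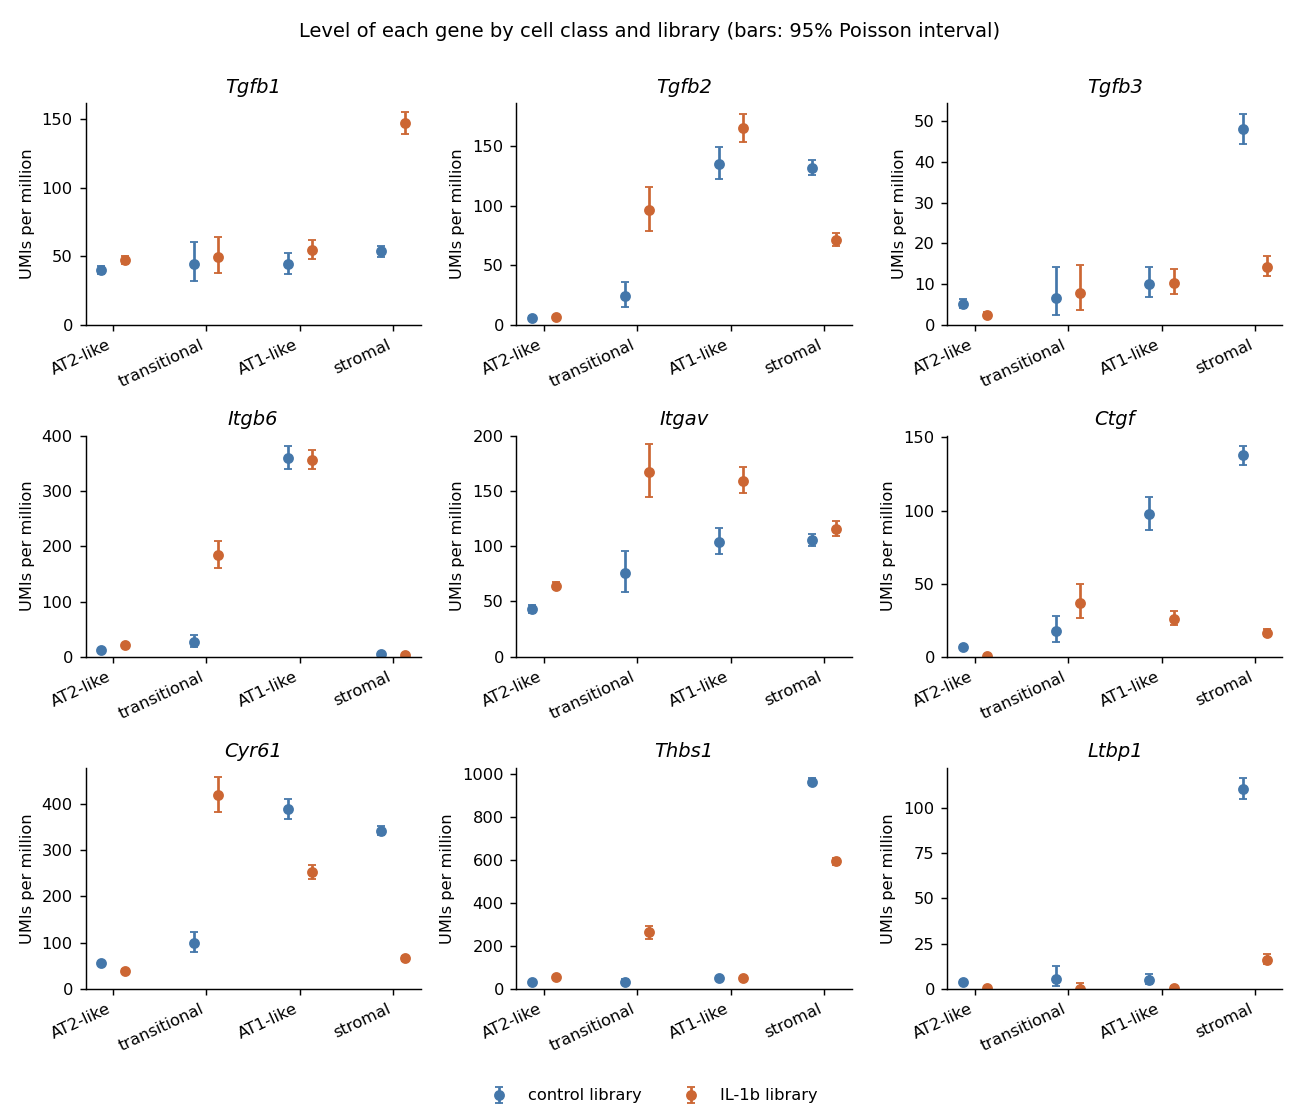
Level of each of the 9 genes in CPM (y axis, from 0, own scale per gene) in the AT2-like, transitional, AT1-like and stromal cells (x axis) of the control (blue) and IL-1β (orange) libraries; bars are exact 95% Poisson intervals. Itgb6 stands at 360 and 358 in AT1-like cells and under 5 in stromal cells, while Thbs1, Tgfb3 and Ltbp1 are highest in control stromal cells.

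**Figure D2:**
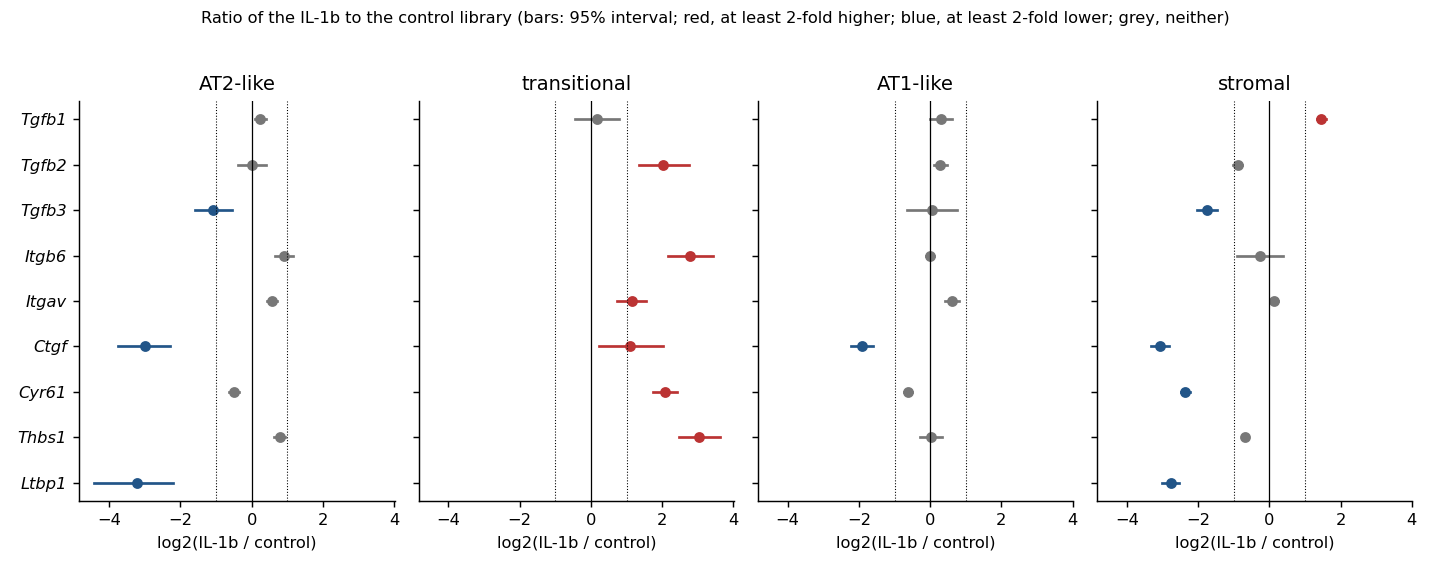
Log2 ratio of the IL-1β to the control library (x axis) for each gene (y axis) in the 4 classes, with exact 95% intervals; dotted lines mark 2-fold, and genes with fewer than 20 UMIs are left out. The 6 called genes lie to the right of the dotted line in transitional cells, Ctgf lies to the left in the other 3 classes, and Tgfb1 lies to the right only in stromal cells.

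Of the ligands, Tgfb1 varied least across the epithelium. Its level was 39.8 CPM in control AT2-like cells, 44.3 in transitional, 44.0 in AT1-like and 53.5 in stromal cells. In the IL-1β library the same classes stood at 47.1, 49.7, 54.3 and 147. The 6 epithelial values had overlapping neighbors throughout their order, but the ends lay apart. Control AT2-like cells (36.7 to 43.2) were below AT1-like cells with IL-1β (47.8 to 61.5). AT2-like cells were 1.18-fold higher with IL-1β (1.07 to 1.31), far from the 2-fold rule. Only stromal cells with IL-1β stood clear of all others, at 2.75-fold the control (95% interval 2.51 to 3.02). After each cell was thinned to 4600 UMIs, the share of stromal cells with a Tgfb1 UMI was 43.1% with IL-1β (exact binomial 95% interval 38.5 to 47.9) against 20.1% (17.3 to 23.1) in the control; unthinned, the shares were 75.2% and 49.0%. Every stromal cluster of the IL-1β library shown had 122 to 157 Tgfb1 CPM, and those of the control 33.6 to 63.1.

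Of the 3 ligand genes, Tgfb2, the isoform without the integrin site, differed most between AT1-like and AT2-like cells. It was at 6.03 in control AT2-like cells, 23.8 in transitional and 135 in AT1-like cells, which put AT1-like at 22.4-fold the AT2-like level (17.9 to 28.5). With IL-1β the values were 6.08, 96.05 and 165, with AT1-like at 27.2-fold AT2-like (22.7 to 32.8). Each step from AT2-like to AT1-like cells exceeded the counting intervals in both libraries. Between libraries, Tgfb2 in transitional cells was 4.04-fold higher with IL-1β (2.54 to 6.70), although 17 of the 22 control UMIs came from 5 cells, whereas AT2-like cells stood at 1.01-fold (0.769 to 1.33) and AT1-like cells at 1.22-fold (1.08 to 1.38). The log2 value of the transitional ratio, 2.01, ranged from 0.21, where all barcodes were kept, to 2.20 over 14 other settings. AT2-like Tgfb2 was at 4.56% of the stromal level in the control and 8.52% with IL-1β, against released-RNA ranges of up to 4.30% and 3.82%. The 22.4-fold ratio therefore rests on an AT2-like level close above that range. With free RNA subtracted, the AT2-like log2 ratio between libraries went from 0.01 to 0.66. Stromal cells held 132 CPM in the control and 71.3 with IL-1β, a difference of 1.85-fold (1.69 to 2.03) that missed the 2-fold rule. The control value included a cluster of 87 cells led by Wfdc21, which held 0 IL-1β cells. The Tgfb2 level of that cluster was far above that of the largest stromal cluster. How much of the stromal difference came from it was not tested.

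Tgfb3 was mainly a stromal transcript. It stood at 48.0 CPM in control stromal cells and at 14.2 with IL-1β, 3.37-fold lower (2.79 to 4.11). In the epithelium it was low, between 5.10 and 10.0 in the control classes and between 2.41 and 10.3 with IL-1β. The AT2-like value was 2.11-fold lower with IL-1β (1.48 to 3.04), on 56 and 77 UMIs. Tgfb3 in AT2-like cells amounted to 10.6% of the stromal level in the control and 17.0% with IL-1β, above the share left by released stromal RNA.

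Ltbp1, whose product holds the latent complex in the matrix, was likewise stromal, and fell there. Control stromal cells held 111 CPM (1461 UMIs) and IL-1β stromal cells 16.2 (147 UMIs), which is 6.82-fold lower (5.75 to 8.14). The share of thinned stromal cells with an Ltbp1 UMI was 34.2% in the control (30.9 to 37.6) and 5.09% with IL-1β (3.25 to 7.54). In AT2-like cells, where the median depths were 14248 and 11235 UMIs a cell against 15622 and 14777 in stromal cells, the thinned shares were 1.49% and 0.0507%. AT2-like levels were 3.65 in the control and 0.388 with IL-1β, 9.39-fold lower (4.61 to 21.6). Those levels amounted to 3.30% and 2.39% of the stromal level of the same library, within the range of released stromal RNA. Whether any of it was epithelial expression was not tested. Control AT1-like and transitional levels were 4.39% and 4.89% of the stromal level, on 15 and 5 UMIs. The released-RNA ranges there ended at 3.64% and 3.99%. In transitional cells 0 Ltbp1 UMIs were counted with IL-1β, with an exact upper limit of 3.16 CPM, against 5 UMIs in the control.

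Of the genes for proteins that release TGF-β, Itgb6 was highest in AT1-like cells of both libraries and lowest in stromal cells. Control AT2-like cells held 11.9 CPM, transitional cells 27.0 and AT1-like cells 360, and with IL-1β the values were 22.0, 184 and 358. Both AT1-like values overlapped (ratio 0.992, 0.919 to 1.07), whereas transitional cells with IL-1β lay 6.82-fold above those of the control (4.50 to 10.8). The log2 value of that ratio, 2.77, ranged from 1.14 with all barcodes kept to 2.79 over 14 other settings. AT2-like cells were at 1.86-fold (1.56 to 2.21), just short of the 2-fold rule. Per cell, thinned to 4600 UMIs, an Itgb6 UMI was seen in 72.0% of control AT1-like cells and 73.9% with IL-1β. The share among transitional cells was 35.9% with IL-1β (26.7 to 46.0) and 14.0% in the control (6.26 to 25.8), and among AT2-like cells 9.28% (8.04 to 10.6) and 4.46% (3.27 to 5.93). Stromal cells, which should lack this gene, gave 2.56% in the control and 1.77% with IL-1β, at levels of 4.46 and 3.75 CPM.

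Within the AT2-like class the clusters were far from alike. Itgb6 ran from 45.4 and 57.6 CPM in the IL-1β clusters led by Tubb2b and Susd2 to 6.06 in that led by Acoxl, and in the control from 29.3 in the cluster led by St6gal1 to 2.87 in that led by Ccl5. Tgfb2 stood at 10.5, 21.1 and 14.6 in the clusters led by Tubb2b, Susd2 and St6gal1 and at 2.65 and 4.30 in those led by Acoxl and Ccl5, but also at 18.6 (5 UMIs) in the IL-1β cluster led by Ccl5, where Itgb6 was at 14.8. Against the other epithelial cells of the library, AT2 markers averaged -0.05 (Tubb2b), -0.07 (Susd2) and -0.13 (St6gal1) on the log2 scale. They averaged 0.29 (Acoxl) and, for the Ccl5-led clusters, 0.31 in the control and 0.20 with IL-1β. Transitional markers averaged 0.43 in the Susd2-led cluster, short of the naming cutoff. With another seed, a cluster with AU021092 and Susd2 leading was named transitional. How far near-transitional cells set these differences was not tested. The log2 ratio of Itgb6 in AT2-like cells, 0.89, ranged from 0.79 to 1.63 over 16 other settings.

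**Figure D3:**
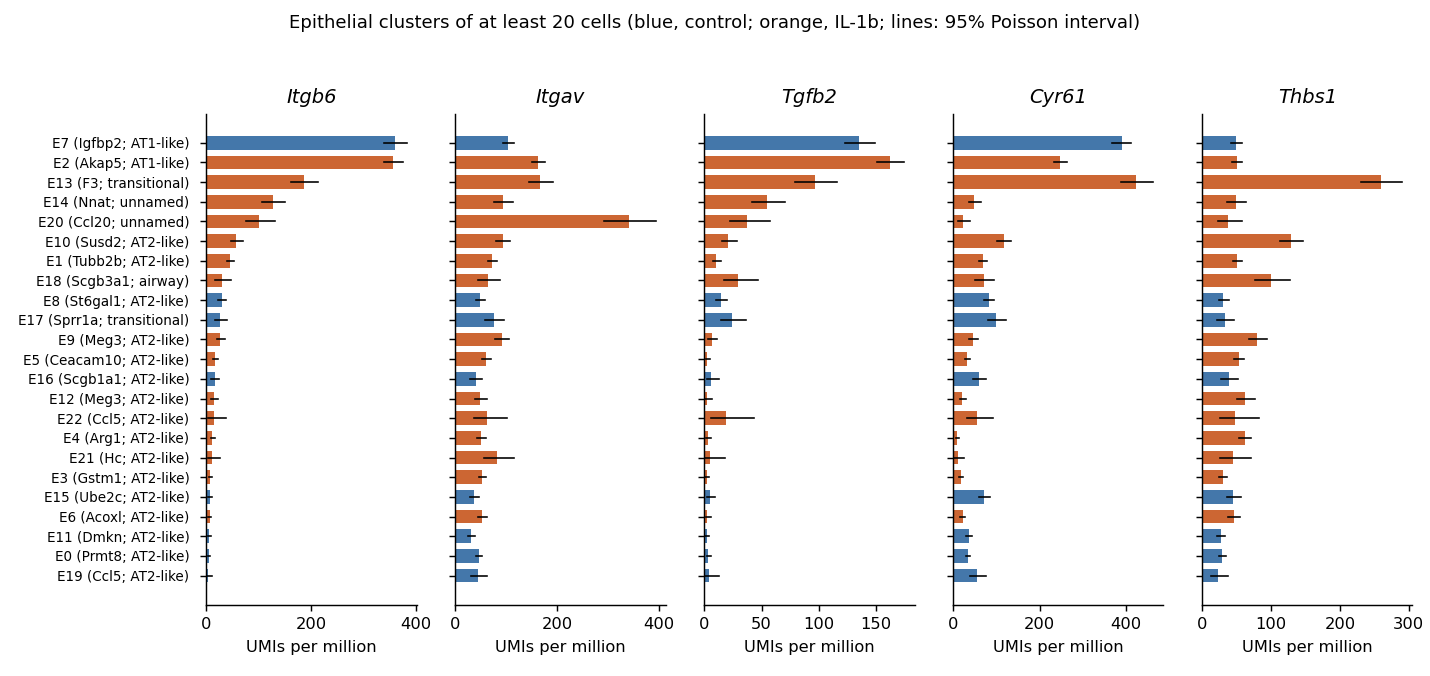
CPM (x axes, from 0) of 5 genes in each epithelial cluster of at least 20 cells, named by a leading gene and its class and ordered by Itgb6; blue bars are the control cells of a cluster, orange bars the IL-1β cells, and lines are 95% Poisson intervals. The AT1-like clusters lead for Itgb6 and Tgfb2, and the transitional cluster labelled by F3 leads for Thbs1 at 260.

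Itgav, the partner of β6 and of several other β chains, was broad. Control levels were 43.2 CPM in AT2-like, 75.7 in transitional, 104 in AT1-like and 105 in stromal cells. IL-1β values were 64.3, 167, 159 and 116. Every class stood higher with IL-1β, by 2.21-fold in transitional cells (1.67 to 2.95), 1.53-fold in AT1-like (1.34 to 1.75), 1.49-fold in AT2-like (1.36 to 1.64) and 1.10-fold in stromal cells (1.01 to 1.19), of which only the transitional ratio met the rule. With another random seed that ratio, 1.14 on the log2 scale, was 0.94 and missed it. Among thinned AT1-like cells 25.7% of the control (20.03 to 32.0) and 38.7% of IL-1β cells (33.5 to 44.2) had a UMI of both integrin genes. In transitional cells the same was seen in 14.6% with IL-1β (8.39 to 22.9) and 3.51% in the control (0.428 to 12.1), and in AT2-like cells in 3.55% and 1.29%. The product of the shares of the 2 genes was close to these values in AT1-like cells (24.8% in the control and 37.3% with IL-1β). It was also close in transitional cells (3.20% and 16.4%). In AT2-like cells the product was lower than the observed share, at 2.49% with IL-1β, below the interval of that share (2.78 to 4.46). The control AT2-like product was 0.846%, within the interval of 0.688 to 2.20.

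Thbs1, which encodes thrombospondin-1, was chiefly stromal, and its UMIs were gathered in few cells. Stromal cells held 966 CPM in the control and 595 with IL-1β (1.62-fold lower, 1.57 to 1.68). Of the 12768 control UMIs, 84.7% came from a cluster of 85 cells led by Ctgf, Wisp2 and Igfbp2, with the contractile genes Acta2 and Tagln among its leading genes; the same cluster had 16 IL-1β cells. Its Thbs1 level was 5226 in control and 3955 in IL-1β cells. Without that cluster, a choice made after the data were seen, the direction turned: the remaining 696 control cells stood at 175 and the 436 IL-1β cells at 391, which is 2.23-fold higher with IL-1β (2.11 to 2.36). This cluster held 10.9% of the control and 3.54% of the IL-1β stromal cells.

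In the epithelium, Thbs1 was highest in transitional cells with IL-1β, at 263 CPM. The control transitional value was 32.4, so that the ratio was 8.12-fold (5.57 to 12.2). On the log2 scale this is 3.02, with a range from 1.89 with another random seed to 4.53 with free RNA subtracted. Of thinned transitional cells 55.3% (45.2 to 65.1) had a Thbs1 UMI with IL-1β and 10.5% (3.96 to 21.5) in the control. AT2-like cells stood at 57.6 with IL-1β and 33.5 in the control (1.72-fold, 1.55 to 1.91), and AT1-like cells at 49.5 and 48.5. Control AT2-like and transitional levels were 3.47% and 3.36% of the stromal level, within the range of released stromal RNA, whereas with IL-1β the AT2-like level was 9.68% and the transitional level 44.2%. The stromal markers in transitional cells reached 3.86% of their stromal level with IL-1β at most, and 3.99% in the control.

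**Figure D4:**
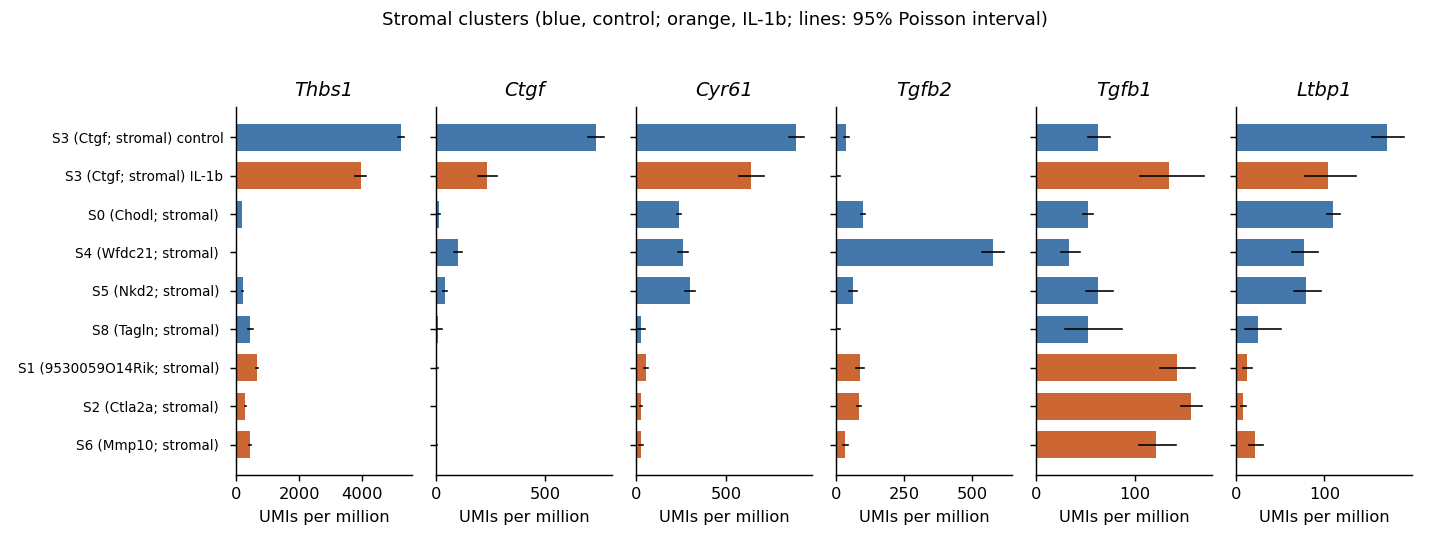
CPM (x axes, from 0) of 6 genes in the stromal clusters, named by their leading gene; blue bars are control cells, orange IL-1β cells, and lines are 95% Poisson intervals. Thbs1 and Ctgf stand out in the Ctgf-led cluster of both libraries (the IL-1β bar rests on 16 cells), Tgfb2 in the Wfdc21-led control cluster, and Tgfb1 in all IL-1β clusters.

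Ctgf, a matrix protein gene downstream of both YAP and TGF-β, was lower with IL-1β in 3 of the 4 classes. Stromal cells fell from 138 to 16.4 CPM (8.38-fold, 7.08 to 9.97) and AT1-like cells from 97.6 to 25.9 (3.77-fold, 3.04 to 4.71). The Ctgf-led cluster held 83.4% of the control stromal UMIs and 81.2% of those with IL-1β, and within it the level was 733 in the control and 233 with IL-1β. Outside it the level was 27.1 in the control and 3.28 with IL-1β, 8.27-fold lower. Of thinned AT1-like cells 22.9% had a Ctgf UMI in the control (17.5 to 29.1) and 8.71% with IL-1β (5.91 to 12.3).

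AT2-like Ctgf was low in both libraries, at 6.83 CPM in the control and 0.862 with IL-1β, 7.92-fold lower (4.87 to 13.5). Those levels were 4.96% and 5.25% of the stromal level of the same library, close above the released-RNA range of up to 4.30% and 3.82%, and whether they come from AT2-like cells was not tested. In transitional cells Ctgf was at 17.3 in the control and 36.9 with IL-1β (2.13-fold higher, 1.18 to 4.05). Only 10 of 103 IL-1β cells had a UMI, and 38 of the 43 UMIs came from 5 cells. As a mean over cells the log2 ratio was -0.02 in place of 1.09, and it was also below 0 with another random seed and with all barcodes kept, so that no direction is drawn for Ctgf in this class.

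Unlike Ctgf, Cyr61, the other YAP target, did not pass the rule between libraries in AT2-like or AT1-like cells. Control values were 55.2 CPM in AT2-like, 99.5 in transitional, 388 in AT1-like and 342 in stromal cells. With IL-1β they were 39.3, 419, 253 and 66.6. Stromal cells were 5.14-fold lower with IL-1β (4.72 to 5.60), while AT1-like cells were 1.54-fold lower (1.42 to 1.67) and AT2-like cells 1.40-fold (1.28 to 1.54), both short of the rule. Transitional cells went the other way, 4.21-fold higher with IL-1β (3.36 to 5.32), although 5 cells held 59.2% of the IL-1β UMIs and 57.6% of the control UMIs. The log2 value of 2.07 ranged from 0.996 with another random seed, which misses the rule, to 2.18. The share of thinned transitional cells with a Cyr61 UMI was 35.9% with IL-1β (26.7 to 46.0) and 17.5% in the control (8.75 to 29.9), intervals that overlap. In AT1-like cells it fell from 69.3% (62.7 to 75.3) to 48.3% (42.9 to 53.9), and in stromal cells from 47.9% (44.3 to 51.5) to 14.6% (11.5 to 18.2).

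Within each library the members were also set against AT2-like cells by the same rule. In the control 3 of 9 were higher in transitional cells (Tgfb2, Itgb6 and Ctgf; 5.73% of all genes were higher and 1.98% lower), 5 in AT1-like cells (Tgfb2, Itgb6, Itgav, Ctgf and Cyr61; 17.7% higher and 7.63% lower) and 7 in stromal cells, that is all but Tgfb1 and Itgb6 (26.5%). With IL-1β 7 of 8 were higher in transitional cells, that is all but Tgfb1 (8.44% of all genes higher, 3.4% lower), 6 of 8 in AT1-like cells (12.4% and 5.92%) and 6 of 9 in stromal cells (17.3%). The transitional counts rest in part on few cells. In the control 5 cells held 13 of 16 Ctgf, 17 of 22 Tgfb2 and 16 of 25 Itgb6 UMIs. With IL-1β 5 cells held 38 of 43 Ctgf and 6 of 9 Tgfb3 UMIs. Itgb6 alone was lower in stromal than in AT2-like cells, by the same rule, in both libraries, where 15.1% of all genes were lower in the control and 21.3% with IL-1β. AT1-like cells exceeded AT2-like cells by 30.4-fold for Itgb6 in the control (25.9 to 35.8) and 16.2-fold with IL-1β (14.7 to 18.0), and by 14.3-fold (11.4 to 18.1) and 30.0-fold (18.6 to 50.9) for Ctgf. The Ctgf ratios rest on AT2-like levels of 6.83 and 0.862 CPM, or 4.96% and 5.25% of the stromal level. Those shares are close above the released-RNA range of up to 4.30% and 3.82%.

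The wider pathway was read from gene lists, in which members stand beside other genes. Behind the counts between libraries, 8.53% of all genes were higher and 5.85% lower in AT2-like cells, and 8.94% and 4.21% in transitional cells. The shares were 5.78% and 4.2% in AT1-like cells and 4.88% and 12.9% in stromal cells. Of the latent complex genes in AT2-like cells, 4 of 9 were lower with IL-1β and 0 higher. Of these 4, Ltbp1 and Lrrc32 (2.87% of the stromal level in the control and 1.47% with IL-1β) were within the range of released stromal RNA, so that Tgfb3 and Ltbp4 were the 2 lower above it. In stromal cells 4 of 8 were lower, among them Ltbp4 and Lrrc32, and only Tgfb1 was higher. Of 11 activator genes with enough UMIs, 3 were higher in AT2-like cells (Mmp14, Mmp9 and Plat), Mmp14 going from 6.56 to 21.3 CPM (3.25-fold, 2.62 to 4.08), and 1 in stromal cells, the secreted protease gene Mmp9, from 3.18 to 67.6 (21.3-fold, 15.6 to 29.8), with 0 lower in either class. In AT2-like cells Mmp9 rested on 32 UMIs with IL-1β, and its 1.38 CPM were 2.04% of the stromal level, within the released-RNA range. Mmp14 there, at 4.30% of the stromal level with IL-1β, was close above that range, which ended at 3.82%. In transitional cells 4 of 7 measured activators were higher (Itgav, Itgb6, Mmp14 and Thbs1) and 0 lower, while Itgb5 was the only activator past the rule in AT1-like cells, lower at 4.82 against 16.5 CPM.

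Of the receptor and Smad genes, 0 of 8 passed the rule in stromal cells and 0 of 6 in AT1-like cells. In AT2-like cells 1 of 8 passed (Eng, lower, at 2.87% of its stromal level in the control and so within the released-RNA range). In transitional cells 1 of 5 passed, the type I receptor gene Tgfbr1, higher, from 29.2 to 97.8 CPM (3.35-fold, 2.19 to 5.30). With so few genes in the list, no reading against the shares of all genes is drawn from these counts. Among 11 inhibitor genes, the feedback genes Pmepa1 and Smad7, which TGF-β signaling induces and which then dampen it, were lower with IL-1β in stromal cells (280 to 86.6 and 55.3 to 23.3 CPM) and in AT1-like cells (63.3 to 28.7 and 43.6 to 21.7). In transitional cells the inhibitor genes Ski and Skil went the other way, higher with IL-1β (42.2 to 106 and 32.4 to 77.2 CPM). Bambi was lower there (41.1 to 19.7) and in AT1-like cells (9.37 to 3.51). Dcn, whose matrix product binds TGF-β, rose in stromal cells from 229 to 5809 (25.4-fold, 24.5 to 26.4). Its calls in the epithelial classes, for example 5.64 to 136 in AT2-like cells, stand beside that stromal level, and Dcn is among the markers of released stromal RNA.

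TGF-β target genes differed in direction by class. In AT1-like cells 7 of 16 measured targets were lower and 0 higher, with Lox at 51.1 in the control and 10.96 CPM with IL-1β and Acta2 at 21.0 and 1.75. Of these 7, Ltbp2 (3.38% of the stromal level in the control) and Col3a1 (2.60%) were within the released-RNA range of up to 3.64%, which leaves 5. Acta2 was at 5.31% and 4.82% of the stromal level, not far above that range, and Lox at 9.42% and 3.42%. In stromal cells 5 of 17 were lower, including the contractile genes Acta2 (396 to 36.4) and Tagln (156 to 18.2), and only Fn1 was higher (236 to 717). Both contractile genes were leading genes of the Ctgf-led cluster (85 control and 16 IL-1β cells) and of a Tagln-led cluster (28 and 1). How much of their difference came from these clusters was not tested. In transitional cells 5 of 13 were higher, among them Fn1 (9.73 to 218), and Col3a1 was lower, at 2.19% of its stromal level in the control and so within the released-RNA range.

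The YAP target list, which holds Ctgf, Cyr61 and Tgfb2, was also counted by class. In stromal cells 12 of 22 were lower and 1, Nt5e, was higher, with a list median log2 ratio of -1.10 against -0.34 over all genes. The angiomotin-like gene Amotl2 and the Hippo kinase gene Lats2 were among those lower, and each is also a component of the Hippo pathway. In AT1-like cells 5 of 21 were lower and 0 higher (median -0.62 against -0.00), and in AT2-like cells 3 of 21 were lower and 0 higher (-0.35 against 0.09), of which Ccdc80 was within the released-RNA range (2.11% of the stromal level in the control). In transitional cells 6 of 14 were higher, led by Ankrd1 (0 control UMIs against 172, at least 36.6-fold higher by the exact 95% limit) and the tissue factor gene F3 (56.2 to 664 CPM), and Ptpn14 was lower. The list median log2 ratio there was 0.06 against 0.08 over all genes. The 6 include the members Tgfb2, Cyr61 and Ctgf, and no direction is drawn for Ctgf in this class. Both Ankrd1 and F3 are also leading genes of the IL-1β transitional cluster.

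Of the genes of the Hippo pathway itself, 0 of 16 passed in transitional cells, where 8.94% of all genes were higher and 4.21% lower. Of 19 genes, Tead4 alone was lower in AT1-like cells (18.4 to 6.14 CPM), where 4.2% of all genes were. Lats2 and Amot were lower in AT2-like cells, of 19 genes, where 5.85% of all genes were. In stromal cells 5 of 20 were lower, led by Vgll3 (26.9 to 3.09), where 12.9% of all genes were. Immediate-early genes, which dissociation of tissue can also raise, moved with some of these results: they summed to 1731 CPM in control and 2922 in IL-1β transitional cells, where Fos, Jun, Egr1 and Hspa1a were called higher, and to 2518 and 1523 in stromal cells, where Egr1, Nr4a1, Btg2 and Ier2 were called lower. Atf3 was called higher in stromal cells (3.03 to 9.26 CPM). In AT1-like cells the sums were 1921 and 1937, with Hspa1a and Hspa1b called higher and Fosb and Nr4a1 lower. In AT2-like cells they were 1660 and 2252, with Egr1, Hspa1a and Hspa1b called higher. Cyr61 and Ctgf respond quickly to serum and handling too, and the part of dissociation in their values was not tested.

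Across the 8 combinations of class and library, the genes whose log2 levels followed each member best were found among 10507 genes, and with so few points sharing 2 libraries the values are descriptive. Itgb6 went with Lcmt2, Gtf3c2 and Topors (Pearson r 0.99 each), and Tgfb2 with Dnajb6, Samd4 and Itgb1 (0.98 each). Ltbp1 went with Cpxm1, Plac8 and Nkd2 (0.99 each), Thbs1 with Pdlim7, Vsir and Pdlim4 (0.98 to 0.99), and Tgfb1 with Serpinb2, Ctla2a and Snap25 (0.98 to 0.99). Ctgf had Ric1, Ryk and Lats2 (0.96 to 0.99), Cyr61 had Fhl1, Toe1 and Strn3 (0.97 to 0.98), Itgav had Tor1a, Lsg1 and Sf3a3 (0.97 to 0.99) and Tgfb3 had Ctif, Epm2aip1 and Commd1 (0.97 each).

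**Figure D5:**
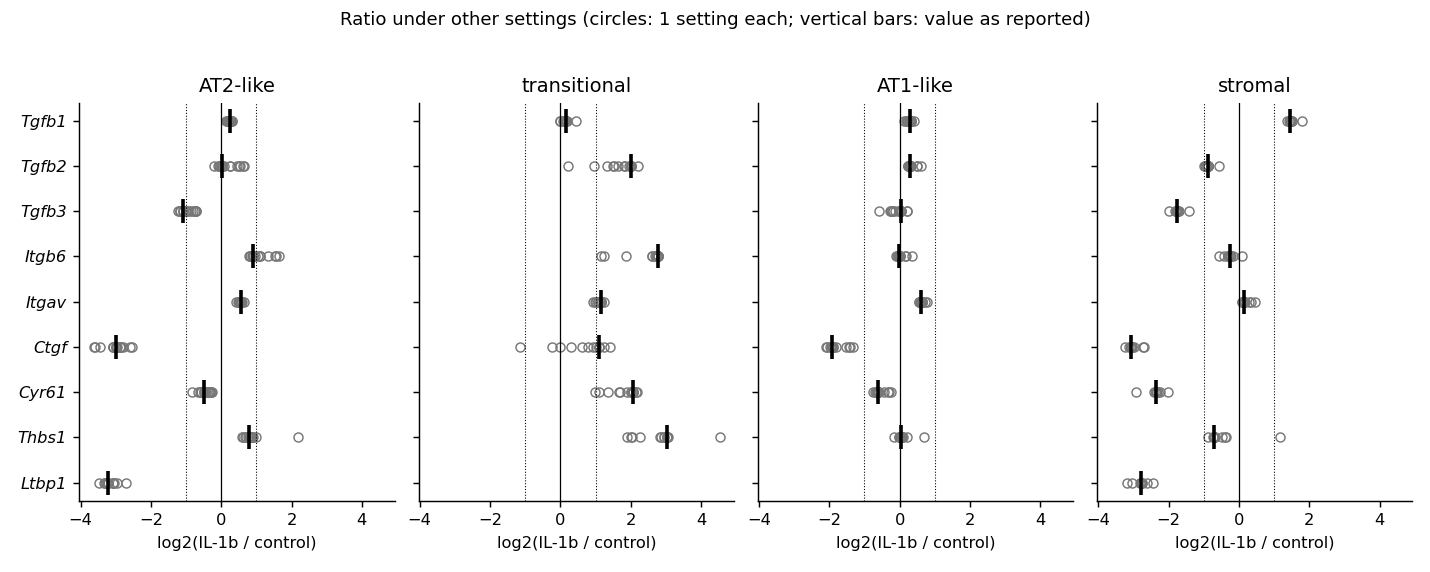
Log2 ratio of the IL-1β to the control library (x axis) for each gene (y axis) in the 4 classes as reported (vertical bars) and under each of the other settings (circles); dotted lines mark 2-fold. Genes with fewer than 20 UMIs are left out; in transitional cells the circles of Ctgf lie on both sides of 0, and in stromal cells Thbs1 has a circle at 1.16, the value without the Ctgf-led cluster.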

How the data were processed

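Per the labels and the study's methods, organoids grown from sorted lineage-labeled AT2 cells with stromal cells were profiled by droplet 3′ single-cell RNA sequencing, and the authors deposited UMI counts by gene and barcode, with no normalization, after alignment to GRCm38 by Cell Ranger. From these counts, cells with over 500 and under 7000 genes and over 2000 UMIs were kept, which left 2083 control and 3059 IL-1β cells, and 3 of these were removed as doublets with Scrublet at the study's settings, which is too few for the caller to count as having worked. The remaining 5139 cells were clustered with scanpy 1.11.5 and leidenalg 0.10.2 (50 components, 15 neighbors; resolution 2 for epithelial, 0.5 for stromal cells), leaving out the 9 genes and all listed genes. The planned resolution was 1; resolution 2 and the naming rules were set after clusterings at both, and levels of the members by cluster, had been seen, because at 1 no control cluster could be named transitional. An epithelial cluster was named transitional, AT1-like or airway (42 IL-1β cells) by its markers. These had to average at least 0.5 on the log2 scale above the other epithelial cells of its main library, with at least 3 markers above. AT2-like was the default for the rest. It asked only that AT2 markers averaged less than 0.5 below those cells, with at least 3 above. This class includes a cycling cluster of 83 control and 4 IL-1β cells. Other cells were unnamed (1 control, 133 IL-1β cells) or mixed with stromal genes (16 and 23). Counts were summed per class and library. Ratio intervals are exact conditional binomial intervals. They were tested on simulated Poisson counts without spread between cells, so that test does not show how they hold for counts gathered in few cells. A count of 0 was taken as 3 counts in a ratio. Intervals cover counting error only. The libraries shared 11 barcodes. Named genes were all members, up to 4 genes of each list ranked by the interval limit nearest 1, and the 3 nearest genes by Pearson correlation. The members, lists and markers were chosen with earlier results of these data known. The IL-1β dose and the day of harvest differ between the sources used here; no dose is given, and the culture time is that of the labels. The genes Ctgf and Cyr61 are Ccn2 and Ccn1 in current annotation. Results for some genes are not reported here.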

Additional observations from a re-analysis of the deposited data

Results flagged for a closer look

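The YAP target Cyr61 was lower with IL-1β in stromal cells and higher in transitional cells, with ratios of the IL-1β to the control library of 0.195 and 4.21. In the transitional class 5 cells held 59.2% of the IL-1β and 57.6% of the control Cyr61 UMIs. Another random seed gave a log2 ratio of 0.996 there, short of the rule. The difference between classes was not tested, since each condition has 1 library. Ctgf passed the 2-fold rule in both directions as well, at 0.126 in AT2-like, 0.265 in AT1-like and 0.119 in stromal cells and at 2.13 in transitional cells. The transitional value rests on few cells and turned below 1 in 3 of 13 other settings, so that no opposite direction is drawn for Ctgf. The AT2-like levels were 4.96% and 5.25% of the stromal level, close above the released-RNA range of up to 4.30% and 3.82%. Whether they come from AT2-like cells was not tested.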

How the results depend on the processing

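Counts of members were computed under 16 other settings, of which 2 (resolution 1, the planned value, and leaving out the Ctgf-led stromal cluster) were chosen after seeing the data. Of 218 such counts over 14 comparisons, 198 stayed within 1.5 times the reported count and 20 moved. The number higher with IL-1β in AT2-like cells went from 0 to 1 at resolution 1.0 and 0.5, with Louvain, seed 1, no cell filter, the highest 5% of doublet scores removed, a mean over cells, and free RNA subtracted; with the last, the number lower in that class went from 3 to 1. In transitional cells, seed 1 gave 2 higher in place of 6 and 1 lower in place of 0, and no cell filter and no minimum of UMIs each gave 1 lower. In AT1-like cells Louvain, libraries clustered separately and no minimum of UMIs each gave 2 lower in place of 1. In stromal cells 2 were higher in place of 1 without the Ctgf-led cluster. Against control AT2-like cells, the number higher in control transitional cells was 6 in place of 3 with Louvain and with no cell filter, and 5 with seed 1. The log2 ratio of Ctgf in transitional cells turned from 1.09 to -0.24 with seed 1, to -1.14 with no cell filter and to -0.022 as a mean over cells. Resolution 1.0 and 0.5 left no control transitional cells, so those comparisons have no value there. Setting the median gene ratio to 1 moved stromal log2 ratios by 0.33 upward and no count of members beyond 1.5 times. The causes were not tested. No paired analysis was possible because each condition has 1 library. Depth limits Ltbp1 and Tgfb3 in transitional cells, with 5 and 15 UMIs in both libraries together.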

Other observations

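The IL-1β cells that entered none of the 4 classes fell into 3 main groups. The cluster of 99 cells led by Nnat and Mrc2 had a level (CPM, UMIs per 1000000 UMIs) of 127 for Itgb6 and 54.5 for Tgfb2, between the AT2-like and AT1-like values of that library. The 34 cells led by the chemokine gene Ccl20 had 340 of Itgav, above every class, and 100 of Itgb6. The 42 airway cells, led by Scgb3a1, had 29.4 of Itgb6 and 99.7 of Thbs1. In the control stroma, 87 cells led by Wfdc21, Srgn and Bglap2, with the adipocyte genes Cfd, Adipoq and Plin1 among the leading genes, had 576 CPM of Tgfb2 against 97.6 in the largest stromal cluster, and 27.9 of Thbs1.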
